A study of Mus musculus with 8 samples.

Results

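The 6 genes described here, Grin1, Grin2a, Grin2b, Grin2c, Grin2d and Grin3a, encode subunits of the NMDA receptor. They were chosen by gene symbol from a table of 26229 genes, in which each symbol matched 1 row, and all 6 were among the 18085 genes that carried an adjusted p. The RNA came from primary cortical neurons of mouse embryos at E16.5, kept in culture for 12 days. Wild-type neurons (WT, 4 libraries) were compared with neurons of the genotype H2BE-KO/mCherry-KI (KO, 4 libraries), in which an mCherry knock-in removes the histone variant H2BE, encoded by H2bc21. The labels name the libraries of each genotype as biological replicates and say neither how many embryos each came from nor which part of H2bc21 was replaced.

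NMDA receptors are glutamate-gated cation channels that open when glutamate binds, a co-agonist (glycine or D-serine) binds and the membrane is depolarized enough to expel magnesium from the pore. Each receptor holds the obligatory GluN1 subunit, the product of Grin1, together with GluN2 subunits (Grin2a to Grin2d) or GluN3 subunits (Grin3a among them). In the forebrain GluN2B prevails before birth and GluN2A rises afterwards, so that receptors with slow closing kinetics give way to faster ones. That exchange of Grin2b for Grin2a is a widely used mark of synaptic maturation.

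The 6 genes are alike in protein but well separated in sequence, which matters for assigning reads to them. A stretch at the channel gate, in the third membrane segment, is conserved across the family. Its 21 coding bases are shown here 5′ to 3′ in the sense of the gene, to let the 6 members be compared over the same part of the protein, with capitals for bases that differ from Grin2b. All 6 genes lie on the minus strand, and the positions are in GRCm38.
Grin1, exon 15, chr2:25297202-25297222: tacactgccaacCtGgcAgcc
Grin2a, exon 10, chr16:9653450-9653470: tacacAgccaacCtGgcTgcc
Grin2b, exon 10, chr6:135772247-135772267: tacactgccaacttagccgcc
Grin2c, exon 9, chr11:115253752-115253772: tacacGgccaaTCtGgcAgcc
Grin2d, exon 8, chr7:45854282-45854302: taTacAgccaaTCtGgcTgcc
Grin3a, exon 3, chr4:49770473-49770493: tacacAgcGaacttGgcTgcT

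Within this segment each other member differed from Grin2b at 3 to 6 of the 21 bases. The longest identical runs between pairs lay partly elsewhere. Over the whole coding sequences, the longest identical run between any 2 of the 6 genes was 34 bases, shared by Grin2b and Grin2c, and the shortest of these longest runs was 12. Between Grin2a and Grin2b it was 24 bases (agtgacaagaagttccagagacct). None of the 15 pairs shared a 50-base word. The read length is not given in the sources used here.

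The genes sit on 6 chromosomes, none of them chromosome 3 where H2bc21 lies. In the GENCODE M21 annotation of GRCm38, Grin1 (ENSMUSG00000026959) spans chromosome 2 from 25291181 to 25319187. Grin2a (ENSMUSG00000059003) spans chromosome 16 from 9567898 to 9995560, and Grin2b (ENSMUSG00000030209) spans chromosome 6 from 135713233 to 136173511. Grin2c (ENSMUSG00000020734) lies on chromosome 11 from 115249169 to 115267243, Grin2d (ENSMUSG00000002771) on chromosome 7 from 45831883 to 45878378 and Grin3a (ENSMUSG00000039579) on chromosome 4 from 49661611 to 49845744. Exons of Grin1 overlap those of the antisense gene Grin1os over 1307 bases, or 13.5% of the Grin1 exons, and exons of Grin2d overlap the antisense gene Gm45441 over 643 bases (9.66%). The kit marks strand, but whether counting used it is not given in the sources used here. Grin1os had a mean normalized count of 40.6 in the authors' deposited table, against 7140 for Grin1.

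All measured values come from 1 table of the authors' comparison, which holds for each gene a mean normalized count over the 8 libraries, a log2 fold change with its standard error (SE) and an adjusted p. Values of single libraries were not analysed here, so no overlap between the groups' libraries can be given and the SE stands for their spread. The header does not say which genotype is the numerator. The direction was read from the targeted gene: the sign was set so that H2bc21 is lower in KO, which puts it at a log2 fold change of -3.45 (SE 0.19, DESeq2 adjusted p = 4.49e-68 in the authors' deposited table), or 9.12% of WT. If that reading were wrong, every higher and lower below would swap. The mean normalized counts summed to 39601243 over all genes.

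Grin2b and Grin1 were the most abundant members, and Grin2c was close to absent. In the authors' deposited table Grin2b had a mean normalized count of 20671, Grin1 of 7140, Grin2a of 1975, Grin3a of 1796, Grin2d of 893 and Grin2c of 6.67. Since longer transcripts collect more reads, levels were set against each other only per kb of annotated exon. Grin2b stood at 832 normalized counts per kb, Grin1 at 736, Grin3a at 146, Grin2d at 134, Grin2a at 110 and Grin2c at 1.32. Grin2b and Grin1 thus formed an upper tier, Grin3a, Grin2d and Grin2a a middle tier about 5.03-fold below Grin1 at its top, and Grin2c lay 83.1-fold below Grin2a.

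Per kb of annotated exon, neighbours within the tiers did not differ beyond the spread that the SEs imply. Taking the error of a log2 level as the SE of the fold change divided by 2 and adding the errors of neighbours, the 95% half-interval was 0.39 for Grin2b over Grin1, whose log2 levels differed by 0.18. It was 0.68 for Grin3a over Grin2d (0.13) and 0.56 for Grin2d over Grin2a (0.28). The steps between tiers, at log2 differences of 2.33 and 6.38, were larger than their half-intervals of 0.48 and 0.88. The order inside the tiers depended on the length used. Per kb of the longest transcript Grin1 led with 1670 against 859 for Grin2b, and per kb of coding sequence Grin2b led with 4649 against 2482. These log2 gaps of 0.96 and 0.91 exceeded the half-interval of 0.39, which holds no error of length. Grin2b is the member with the most annotated noncoding exon sequence, at 24842 exon bases of which 4446 are coding, and Grin1 has 9700 and 2877. Per kb of coding sequence Grin2a (450) also passed Grin2d (225), by 1.00 on the log2 scale against a half-interval of 0.56. The count divided by coding length was that of the whole gene, so much noncoding exon sequence raises this value. Grin2a has 17933 exon bases of which 4392 are coding, and Grin2d has 6658 and 3969.

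Grin2b was thus the leading GluN2 transcript at this stage. Over all libraries it made up 77.2% of the summed Grin2 level per kb of exon, Grin2d 12.4%, Grin2a 10.2% and Grin2c 0.12%. With coding length, under the same limit of whole-gene counts, the Grin2b share was 87.3% and that of Grin2a 8.44%. Of Grin2a and Grin2b alone, Grin2a accounted for 11.7% per kb of exon, 13.6% per kb of the longest transcript and 8.82% per kb of coding sequence.

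**Figure D1:**
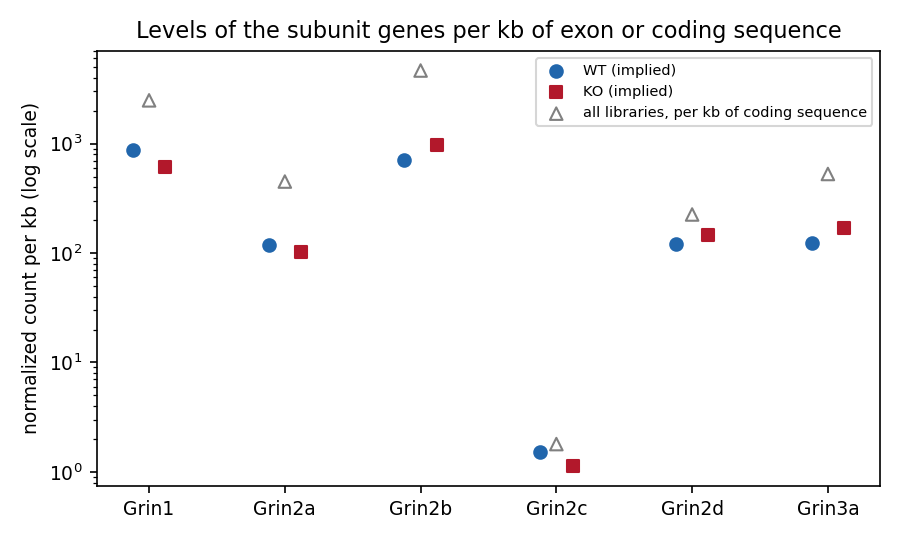
Normalized count per kb of annotated exon (log axis) for the 6 genes, with the WT level (circles) and the KO level (squares) implied by the mean count and the fold change, and, as open triangles, the level over all libraries per kb of coding sequence. Grin1 and Grin2b form the upper tier, from 607 to 962 per kb of exon, and Grin2c lies lowest, at 1.14 and 1.51. The points carry no error bars.

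Of the 6 genes, Grin1 passed the test and was lower in KO, and none was called higher. That is 1 of 6 (16.7%), against 21.8% of all tested genes called in either direction, 10.9% called lower and 11.0% called higher, so the share of the members is near that of the table. The median log2 fold change of the 6 was 0.04, against -0.02 over all tested genes. Grin1, Grin2a and Grin2c had values below 0 and Grin2b, Grin2d and Grin3a had values above 0.

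Grin1, the gene of the subunit that every NMDA receptor needs, fell. Its mean normalized count of 7140 over both genotypes and its fold change imply 8389 in WT and 5892 in KO, so KO was at 70.2% of WT (95% interval 56.4 to 87.4). In the authors' deposited table its log2 fold change was -0.51 (SE 0.16, 4 libraries per genotype, DESeq2 adjusted p = 0.0109), and 14.1% of all tested genes had a smaller p. The antisense Grin1os was at -0.73 (SE 0.34, DESeq2 adjusted p = 0.111) in the same table, with implied counts of 50.6 in WT and 30.6 in KO. That gap is 20.0 counts, where the gap of Grin1 was 2497. Whether reads from the overlapping exons affected the count of Grin1 was not tested.

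The call of Grin1 depended on how the test statistics of the table were judged. Over all tested genes they were 1.96 times as widely spread as a standard normal distribution, and with a null distribution scaled to that spread Grin1 had an adjusted p of 0.779, with 0.409% of all tested genes called. Judged by the t distribution with 6 degrees of freedom, its adjusted p was 0.137 and 0.00553% of tested genes, that is H2bc21 alone, were called.

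Grin2b, the subunit gene of young forebrain synapses, did not pass. Its implied normalized counts were 17450 in WT and 23891 in KO, or 137% of WT (95% interval 99.5 to 188). The log2 fold change in the authors' deposited table was 0.45 (SE 0.23, p = 0.0536 and adjusted p = 0.159, DESeq2). Grin2a, its counterpart in mature synapses, did not pass either, with implied counts of 2115 in WT and 1835 in KO, or 86.8% of WT (66.3 to 114). The authors' deposited table gave it a log2 fold change of -0.20 (SE 0.20, DESeq2 adjusted p = 0.511). On the log2 scale the interval of Grin2a ran from -0.59 to 0.18 and that of Grin2b from -0.01 to 0.91.

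The developmental exchange of Grin2b for Grin2a was examined through the difference of their changes. Grin2b minus Grin2a was 0.66 on the log2 scale, so the ratio of Grin2b to Grin2a was 1.58 times as high in KO as in WT. Both values come from the same libraries and how they vary together is not known. Without covariance the 95% normal interval of the log2 difference was 0.05 to 1.26. In the widest case for the covariance, where the 2 SEs are summed, it was -0.19 to 1.51. The difference thus cleared 0 in the former and not in the latter. In shares per kb of exon, Grin2a made up 14.4% of the implied Grin2a and Grin2b level in WT and 9.62% in KO. The mature partner was the minor one in both genotypes, whichever length was used.

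Both partners were also set against Grin1, for Grin2b as a comparison that was not planned. Grin2b minus Grin1 was 0.96 on the log2 scale, with an interval of 0.41 to 1.52 without covariance and 0.19 to 1.74 in the widest case, so both excluded 0. The implied level of Grin2b per kb of exon was 0.81 times that of Grin1 in WT and 1.58 times in KO. Which of them was higher depended on the length used, since the ratio was 0.37 and 0.72 per kb of the longest transcript and 1.35 and 2.62 per kb of coding sequence, whereas its increase from WT to KO does not depend on length. Grin2a minus Grin1 was 0.31, with an interval of -0.20 to 0.81. Grin3a minus Grin1 was 0.95, with an interval of 0.24 to 1.66 without covariance that reached 0 in the widest case (-0.004 to 1.90). Of the 15 pairs of members, the difference excluded 0 in 3 without covariance and in 1, Grin2b against Grin1, in the widest case. These are normal intervals and were not adjusted for the 15 comparisons. The t distribution and the scaled null, under which Grin1 lost its call, would each widen them and were not applied to differences.

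**Figure D2:**
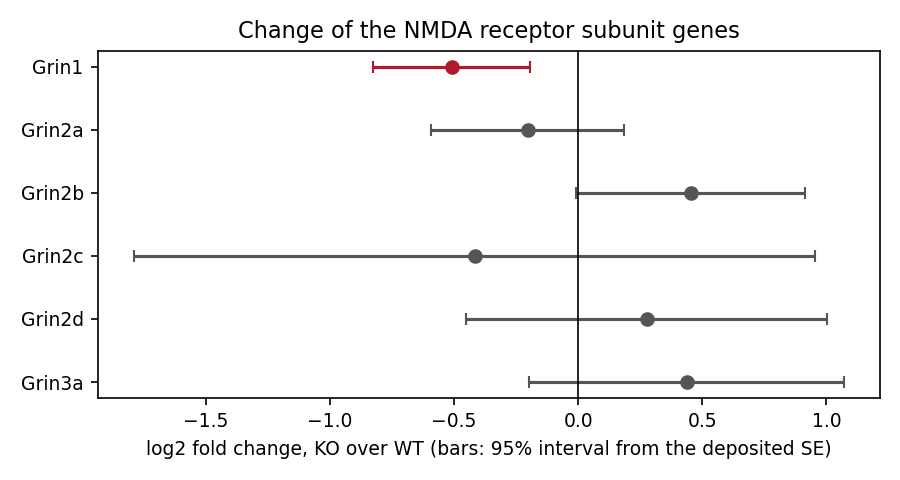
Log2 fold change of each subunit gene, KO over WT, from the authors' deposited table (points) with 95% intervals from the deposited SE (bars, 4 libraries per genotype). Grin1, in red, is the gene that passed an adjusted p of 0.05, at -0.51; the bar of Grin2b ends just below 0.

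The remaining members gave wide intervals. Grin2d, a GluN2 subunit gene expressed mainly early in development, had implied normalized counts of 807 in WT and 978 in KO, with a log2 fold change of 0.28 in the authors' deposited table (SE 0.37, DESeq2 adjusted p = 0.652). Grin3a, whose product lowers calcium entry through the receptor and marks immature synapses, had implied counts of 1526 in WT and 2065 in KO, with a log2 fold change of 0.44 (SE 0.32, DESeq2 adjusted p = 0.359) in the authors' deposited table. Grin2c, best known from the cerebellum, was at -0.42 (SE 0.70, DESeq2 adjusted p = 0.727) in the same table. At its mean normalized count of 6.67 a change of Grin2c between 28.9% and 194% of WT would be compatible with the SE. The interval of Grin3a ran from 87.2% to 210% of WT and that of Grin2d from 73.2% to 200.4%.

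The SEs of the members, except Grin2c, were larger than those of most genes of similar count. The SE of Grin2b was 1.95 times the median SE of the 635 other tested genes with a mean count within 2-fold of its own, and 93.1% of them had a smaller SE. The ratio was 2.48 for Grin2d, with 97.5% of genes of like count below it, 2.45 for Grin3a (96.8%), 1.53 for Grin2a (82.5%) and 1.31 for Grin1 (74.0%). Grin2c, at 0.77, had a smaller SE than most of its peers. If libraries were of equal depth, the SEs imply a standard deviation between libraries of one genotype of 0.33 in log2 units for Grin2b, 0.28 for Grin2a and 0.23 for Grin1, and of 0.52 for Grin2d and 0.46 for Grin3a. These values follow from the SEs of the authors' fitted model and were not measured on single libraries.

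**Figure D3:**
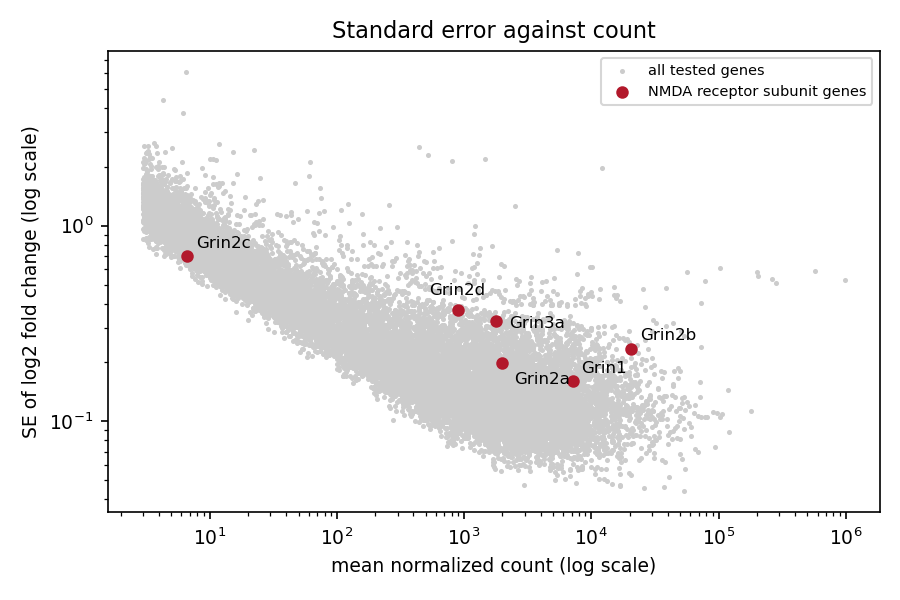
Standard error of the log2 fold change against the mean normalized count (both log axes) for all tested genes (grey) and the 6 subunit genes (red). Grin2b, Grin2d and Grin3a lie near the upper edge of the cloud at their counts, and Grin2c lies in its lower part.

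Several other gene families also exchange an immature for a mature member in the cortex after birth, and the pairs were set beside Grin2b and Grin2a. Of 10 genes on the immature side, Grin2b included, 5 were called higher and 1 lower (60.0% called, against 21.8% of all tested genes), with a median log2 fold change of 0.42. Of 8 genes on the mature side, Grin2a included, 1 was called higher and 2 lower (37.5%), with a median of 0.00054. The median mean normalized count was 4916 on the immature side and 7992 on the mature side, against 438 over all tested genes. SEs were smaller at high counts, with a median of 0.12 among the peers of Grin2b and 0.91 among those of Grin2c. The share called among genes of like count was not computed. Among the immature genes in the authors' deposited table, Gabra3 (0.82, SE 0.12) and Gabra5 (0.48, SE 0.17), GABA-A receptor subunits, rose. Scn3a, the sodium channel of fetal brain, rose to 0.97 (SE 0.18), Camk2b, a CaM kinase II subunit, to 0.53 (SE 0.11) and Ina, the neurofilament protein alpha-internexin, to 0.40 (SE 0.12), whereas Gabra2 fell to -0.82 (SE 0.19), all per the authors' deposited table. On the mature side of the authors' deposited table the sodium channel gene Scn1a (-1.38, SE 0.19) and the heavy neurofilament gene Nefh (-1.75, SE 0.25) fell, and Slc17a7, the vesicular glutamate transporter of mature cortex, rose to 0.75 (SE 0.24).

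The direction was not the same in every family. Besides Grin2b and Grin2a, the immature member lay above its partner in 5 of 7 pairs. By normal intervals the difference excluded 0 in 4 pairs of either direction, both without covariance and in the widest case. Wider intervals, by the t distribution or the scaled null, were not computed. The largest were Scn3a over Scn1a, by 2.36 on the log2 scale (widest interval 1.64 to 3.07), and Ina over Nefh, by 2.14 (1.43 to 2.86). Slc12a2 against Slc12a5, the chloride importer and exporter, went the other way at -0.66 (widest interval -1.30 to -0.01), and so did Slc17a6 against Slc17a7 at -0.58 (-1.71 to 0.54). Dlg3 and Dlg4, the scaffold pair that binds the tails of the GluN2 subunits, differed by 0.13 (widest interval -0.28 to 0.54). The NMDA pair, at 0.66, lay between these. Scn3a enters more than 1 pair, and several genes were known to have changed when the list was drawn up.

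**Figure D4:**
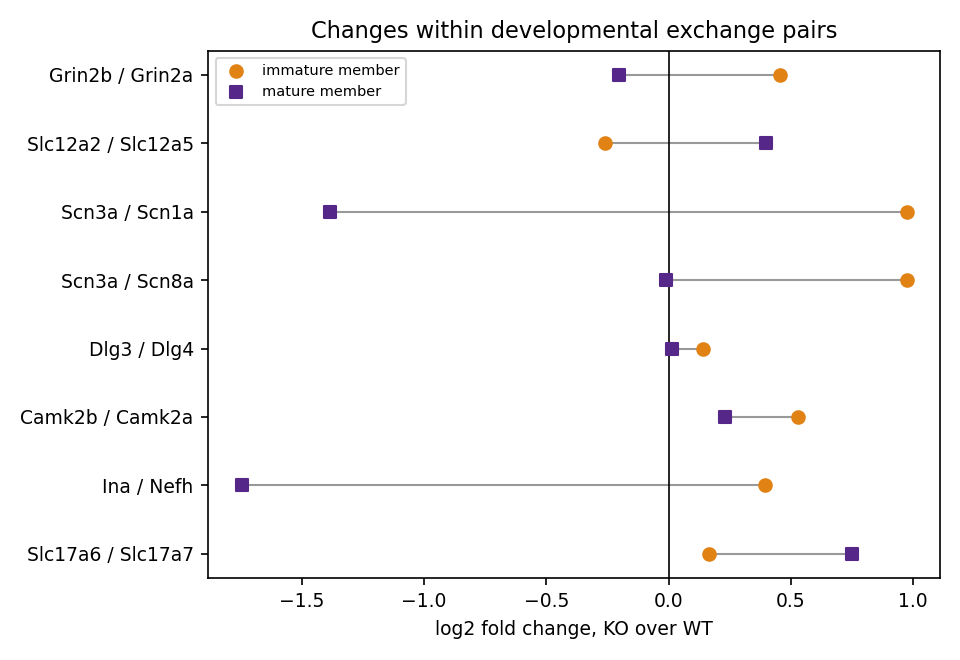
Log2 fold change, KO over WT, of the immature member (circles) and the mature member (squares) of each developmental exchange pair, joined by a line, from the authors' deposited table. The immature member lies to the right in Grin2b and Grin2a and in 5 of the 7 other pairs.

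Among proteins that act on the receptor, calls were scattered, and the share called in each list is set against the 21.8% of all tested genes called in either direction, with a median log2 fold change of -0.02. The median mean normalized count of these lists ran from 892 to 6938, against 438 over all tested genes. Shares among genes of like count were not computed. Of 16 scaffold and auxiliary genes, 4 rose and 1 fell, or 31.2% against 21.8%, with a median log2 fold change of 0.18. In the authors' deposited table Nrgn, the calmodulin-binding protein neurogranin, rose to 2.05 (SE 0.31) and Rasgrf2, a Ras exchange factor coupled to NMDA receptors, to 0.95 (SE 0.24). Of the membrane-associated scaffolds that hold GluN2 tails, Dlg2 (PSD-93) rose to 0.35 (SE 0.12) and Dlg1 (SAP97) fell to -0.49 (SE 0.15), while Dlg4 (PSD-95) stood at 0.01 (SE 0.08, DESeq2 adjusted p = 0.935), per the authors' deposited table.

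Of 16 kinase and phosphatase genes that act on the subunits, 3 rose and 1 fell, a called share of 25% beside 21.8% over the table, with a median of 0.10. The authors' deposited table placed Prkcb at 1.08 (SE 0.17) and Prkca at -0.71 (SE 0.16), both protein kinase C genes, Camk2b at 0.53 and Dapk1, a death-associated kinase that binds GluN2B, at 0.54 (SE 0.18). Of 14 trafficking and anchoring genes, 2 rose and none fell (14.3% against 21.8% of all tested genes, median -0.04), namely Lin7c at 0.87 (SE 0.15), part of the complex that carries GluN2B along dendrites, and the receptor gene Ephb2 at 0.31 (SE 0.12) in the authors' deposited table. Of 12 tested genes of co-agonist supply and clearance, 2 rose and none fell (16.7% against 21.8%, median 0.04). These were the amino acid transporters Slc1a4 at 0.43 (SE 0.09) and Slc7a10 at 1.84 (SE 0.58, mean normalized count 18.1) in the authors' deposited table. Srr, the enzyme that makes D-serine, was at 0.03 (SE 0.07).

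Of 18 genes of transcription and chromatin factors linked to the subunit genes, 6 rose and none fell, or 33.3% against 21.8% of all tested genes called in either direction and 11.0% called higher, with a median of 0.13. In the authors' deposited table Tbr1, a cortical transcription factor known to act on Grin2b, rose to 1.90 (SE 0.28). Ezh2, the Polycomb methyltransferase, rose to 0.74 (SE 0.21), Dnmt1, the maintenance DNA methyltransferase, to 0.52 (SE 0.16) and Rcor1, a partner of REST, to 0.46 (SE 0.15), per the authors' deposited table. Rest, the repressor tied to the exchange of Grin2b for Grin2a, was at 0.11 (SE 0.24, DESeq2 adjusted p = 0.785), with 147 mean normalized counts.

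By the deposited adjusted p, markers of several cell types differed between the genotypes. Neuron markers were abundant, with a median mean normalized count of 39602, against 438 over all tested genes. Their counts ran from 2650 to 90482 over 10 genes. Of these, 4 (Mapt, Tubb3, Elavl4 and Rbfox3) were called higher and none lower, or 40.0% against 21.8% of all tested genes. Of the 10, 6 had values above 0 and 4 below 0. The implied summed level of the 10 was 359386 in WT and 412858 in KO. Of 8 glutamatergic markers 5 were called higher and none lower (62.5%), and their implied summed level was 29977 in WT and 48632 in KO. Of 10 GABAergic markers 5 were called lower and none higher (50%), with summed levels of 103669 and 55369. Of 8 astrocyte markers 2 were called higher and none lower (25%, near the 21.8% of all tested genes, with summed levels of 10531 and 20493), and of 6 tested microglial markers of 8 listed 4 were called lower (66.7%, summed levels 956 and 213). Of 7 tested endothelial and mural markers of 8 listed 4 were called lower (57.1%, summed levels 2364 and 1423), and of 7 tested oligodendrocyte lineage markers of 8 listed 1 was called higher (14.3%, below the share of all tested genes, summed levels 1579 and 1863). The sums weigh the most abundant genes most. Among astrocyte markers Slc1a2 had a mean normalized count of 13490 against a list median of 187, and among microglial markers Cd68 had 503 against 18.7. Among endothelial and mural markers Rgs5 had 1318 against 57.2, and in the oligodendrocyte lineage Mbp had 1169 against 93.0. No marker listed was at 0, and the lowest were Sox10 at a mean normalized count of 0.29 and Tmem119 at 1.02. Tbr1 and Slc17a7, called among the glutamatergic markers, are also counted above, as a transcription factor and as a mature exchange gene. The part of these shifts in the values of Grin1, Grin2b, the other members, the exchange pairs or the other lists was not tested. In bulk RNA a change in the number of cells of a type and a change in RNA per cell cannot be told apart.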

How the data were processed

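Polyadenylated RNA of 8 libraries (4 WT, 4 KO) was sequenced after TruSeq stranded mRNA preparation, per the labels' protocols. The submitters' processing notes name the build mm10 and the tools DESeq2 and DESeq, without versions. Neither the aligner, the counter, the annotation nor the depth of a library was known here. The signal column deposited by the authors averages counts over the libraries after division by size factors, as its header (baseMean) says. Fold changes and SEs were deposited as log2 values. The authors' score is the Wald statistic, which was checked to be the ratio of those 2 columns. The deposited p-value is two-sided, and its adjusted form was checked to be a Benjamini-Hochberg adjustment over the 18085 tested genes. A gene was called at an adjusted p under 0.05.

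From these values 95% normal intervals, implied levels per genotype (from the mean count and the fold change, for 4 and 4 libraries) and differences between genes were computed with Python 3.11.15, numpy 2.4.6, pandas 2.3.3 and scipy 1.17.1. The implied levels, the Benjamini-Hochberg adjustment and the estimate of the spread of test statistics were tested on simulated data. The intervals and the differences between genes were not. Exon, transcript and coding lengths, positions and transcript sequences come from GENCODE M21 (GRCm38, the assembly that mm10 names), matched by Ensembl identifier for all 6 genes. The members and lists were chosen with earlier results of these data known. In each list up to 4 called genes with the smallest adjusted p were to be named or, with none called, up to 2 of highest count, and in the exchange pairs all called genes. Srr, Rest, Dlg4, Sox10, Tmem119, Rgs5, Mbp and the partners in uncalled exchange pairs were named after their values were seen. Genes of like pattern were not sought, since likeness would rest on 1 contrast. 1 gene of the exchange pairs is not reported here.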

Additional observations from a re-analysis of the deposited data

How the results depend on the processing

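No paired analysis was possible because the table holds no values per library, and for the same reason no replicate was left out and no count model was refitted. Grin1 kept its log2 fold change of -0.51 but lost its call with the t distribution, with the scaled null and at an adjusted p under 0.01 (adjusted p from 0.00795 to 0.779 over the 6 alternatives), which leaves 0 members called lower in these 3. Centred on the median of all genes it was at -0.49 and called. The other 5 members were called under none of the alternatives that could be run (Grin2c has no value at a mean count of at least 100), and no member changed sign. Every other list had 0 calls with the t distribution and with the scaled null, except the mature exchange genes with 1 in the latter. No cell type marker kept its call with the t distribution, since H2bc21 alone was called. Marker calls were not recounted under the other alternatives. At an adjusted p under 0.01, co-agonist genes gave 1 call, scaffolds 3, trafficking 1 and transcription factors 3. Co-agonist genes also gave 1 with genes of mean count 100 or more, and trafficking 1 with no filter. The Grin2b minus Grin2a difference of 0.66 reached 0 with summed SEs. Differences between genes were judged by normal intervals only. Levels per kb moved most with length: by longest transcript Grin1 was at 1670, Grin2a at 135 and Grin3a at 240, and by coding length Grin1 at 2482, Grin2a at 450, Grin2b at 4649, Grin2d at 225 and Grin3a at 527. Among the 6 members low counts limit Grin2c alone. Some called genes outside them also had low counts, such as Slc7a10 at 18.1.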

Other observations

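Among the other genes with a Grin symbol, Grina, which encodes a membrane protein of another family (TMBIM) despite its name, fell to a log2 fold change of -0.22 in the authors' deposited table (SE 0.08, DESeq2 adjusted p = 0.0415), with 7535 mean normalized counts. Grin3b, the second GluN3 subunit gene, had a mean normalized count of 5.28 and did not pass (-1.17, SE 0.78, DESeq2 adjusted p = 0.302, in the authors' deposited table).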
